A study of Mus musculus with 24 samples.

Results

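The inner ear at 20 months of age was compared with the inner ear at 3 months in 8 of the 24 RNA-seq libraries of the series, 4 per age, chosen by their age labels alone. All mice were untreated male C57BL6/J animals with the genotype WT, and the submitters list 4 mice per age. The C57BL/6J strain is known to carry a hypomorphic allele of the stereocilia gene Cdh23 that is linked to its early hearing loss, and both ages share that background. The 4 libraries of 11-month-old mice of the same strain and sex also entered the fit. They shared in the low-count filter, the scaling and the estimate of the spread between animals. Where a tissue score was fitted beside age, they also shared in the estimate of its slope. RNA came from the soft tissue left once the bony shell of the inner ear had been taken away. The sample titles say cochlea, while the design text speaks of all tissue that lay in the bone, so vestibular organs and nerve may be included. The comparison asks which transcripts differ between the young and the old ear. The account below covers mainly genes other than the immune, neuronal and myelin genes that lead the age difference.

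The inner ear turns sound and head movement into nerve signals. Hair cells carry stereocilia whose tip links open transduction channels. Supporting cells hold the hair cells, the stria vascularis secretes the potassium-rich endolymph, and fibrocytes of the lateral wall return potassium to the stria. Spiral ganglion neurons with Schwann cell myelin carry the signal out. The soft tissue lies against temporal bone with marrow, the ciliated middle ear lining, muscle and the brainstem end of the auditory nerve, all of which can be taken along in a dissection.

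Of 18440 genes in the count table, 15525 passed the low-count filter and were tested, with edgeR's quasi-likelihood test and a Benjamini-Hochberg adjusted p under 0.05 as the threshold for a call. At 20 months 1868 genes were higher (12.0%) and 1657 were lower (10.7%), so that 22.7% of the tested genes were called in either direction. These shares are the reference for every list count below. Most differences were small: among higher genes 565, and among lower ones 74, differed by at least 2-fold, and the median log2 fold change over all tested genes was 0.01. Without replicate 1 of the old group 1221 were higher and 990 lower, and without replicate 1 of the young group 1089 were lower. In 1768 of the tested genes (11.4%) every old library lay above every young one, whether called or not, and in 1646 (10.6%) every old library lay below. The library totals ran from 32438525 to 34844505 reads at 3 months and from 30599012 to 32924919 at 20 months. Of the higher calls 97, and of the lower ones 28, were members of the immune, neuronal and Schwann cell lists. Those lists are short, and immune or neuronal genes outside them are not in these numbers. Within them 39 of 47 tested MHC and interferon genes were higher and 0 lower. Of 31 macrophage genes 25 were higher and 1 was lower, and of 32 neuronal genes 0 were higher and 19 lower. All values below are CPM, the read count scaled to the normalised library size, given for replicates 1 to 4 of each age in that order, and fold changes are log2 differences of 20 minus 3 months with their standard error (SE). Since the tissue is bulk, fewer cells of a type and less RNA per cell cannot be told apart in any of these values.

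The defining markers of the inner ear were present at both ages. The hair cell gene Otof ranged from 57.8 to 118 CPM at 3 months and from 32.0 to 84.8 CPM at 20 months. Sox2, a supporting cell transcription factor, ranged from 28.0 to 36.9 CPM and from 27.4 to 41.0 CPM. The marginal cell channel subunit Kcne1 ranged from 119 to 167 CPM and from 45.7 to 173 CPM, and the fibrocyte gene Otos from 1239 to 1886 CPM and from 825 to 1386 CPM. Markers of the tissues around the ear were present too and differed from library to library. The airway secretory protein Bpifa1 ranged from 27.5 to 406 CPM at 3 months and from 3.03 to 977 CPM at 20 months, with a median of 193 and 703 CPM. The cerebellar granule cell gene Gabra6 was at 0 in every young library and at most at 0.356 CPM in the old ones, and the Purkinje cell gene Pcp2 was at most at 0.363 and 0.153 CPM. Other genes of the brain list were well above that level. Gfap ranged from 67.5 to 239.6 CPM at 3 months and from 67.5 to 750 CPM at 20 months, and Aqp4 from 22.3 to 94.4 CPM and from 34.9 to 232 CPM.

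Each neighbouring tissue was summarised by a score, the mean log2(CPM + 1) of its marker genes. The marrow and blood score was 1.83, 3.46, 2.29 and 2.57 at 3 months and 4.13, 2.93, 2.25 and 1.89 at 20 months. It overlapped between the ages and was highest in replicate 1 of the old group. The mucosa score was 2.08, 2.47, 2.12 and 2.56 in the young libraries and 3.83, 3.59, 2.14 and 3.02 in the old ones. The brain score was 3.53, 2.87, 3.28 and 2.99 in the young libraries and 4.00, 2.84, 4.33 and 3.93 in the old ones. In both, 3 of the 4 old libraries lay above all young ones, and the exception was replicate 3 for mucosa and replicate 2 for brain. The mean of the muscle and the bone score was 2.66, 3.29, 2.43 and 3.42 at 3 months and 2.37, 2.56, 2.10 and 2.30 at 20 months, so that 3 of the 4 young libraries lay above all old ones and the exception was replicate 3.

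**Figure D1:**
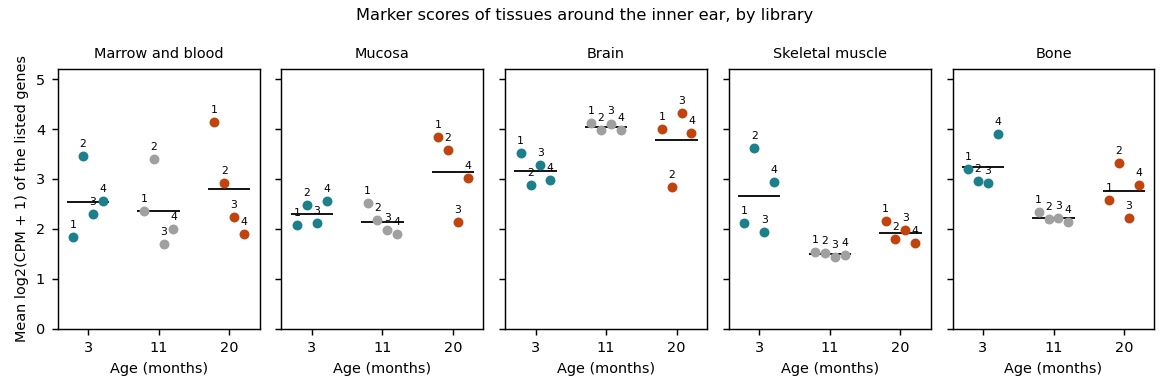
Marker scores of 5 tissues that border the inner ear, as mean log2(CPM + 1) of the listed genes (y axis), against age in months (x axis); each point is 1 library with its replicate number and the line is the mean. Mucosa and brain scores are higher in 3 of the 4 libraries at 20 months than in any at 3 months, and marrow and blood scores overlap.

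Each score was also put into the fit of all 12 libraries as a covariate beside age, in turn. With the marrow and blood score 1673 of the higher and 1498 of the lower calls were kept. With the mucosa score 837 and 421 were kept, with the brain score 1133 and 1079, and with that of muscle and bone 742 and 745. Under all 4 fits 436 higher (23.3%) and 274 lower calls (16.5%) were kept. These are described below as kept with all 4 scores. No score of the neuronal, Schwann cell or immune lists was put into a fit, so a kept call is not adjusted for changes in those cells. Because scores and age move together in part, a call lost in such a fit cannot be assigned to either one.

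Of the heat shock chaperone genes 12 were higher in the old ear, led by the inducible HSP70 genes. These proteins bind unfolded proteins and are induced by the transcription factor HSF1 when proteins misfold. Of the 25 tested members of the list 12 were higher and 0 were lower, against 12.0% and 10.7% of all tested genes, and 7 of the 12 were kept with all 4 scores. DESeq2 gave 14 and 0, and 15 and 0 had an unadjusted p under 0.05. The median log2 fold change of the list was 0.20 against 0.01 for all genes. Leaving out 1 library at a time gave 9 to 12 higher members.

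The inducible cytosolic HSP70 genes had the largest differences of the list. Hspa1b (chr17:34956429-34959238) had 8.25, 9.21, 9.34 and 11.6 CPM in the young libraries and 90.4, 113, 62.0 and 168 CPM in the old ones. Its neighbour and near-identical copy Hspa1a (chr17:34969359-34972156) had 10.1, 8.97, 9.68 and 9.97 CPM and then 52.9, 50.5, 47.1 and 98.4 CPM. Both were lowest in replicate 3 and highest in replicate 4 of the old group, and no old library came near the young range. The log2 fold changes were 3.50 (SE 0.273, adjusted p = 6.94e-05) and 2.68 (SE 0.205, adjusted p = 3.79e-05). Reads of the copies may have been split or dropped in counting, so their separate levels are uncertain, and 19% of the exonic bases of Hspa1a are also exonic in Gm20481 on the other strand.

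Promoter sequence of the HSP70 copies and of the 2 called chaperones with the longest motif is shown to let the shared heat shock elements be read beside the values. The windows run from 250 bases before to 50 bases after an annotated start, 5′ to 3′ on the strand of the gene, from RefSeq on build GRCm38.p6. Hsph1 has 2 promoter entries, of which 1 is shown. Its start lies inside the gene as annotated, whose 5′ end is at chr5:149636498. Capitals mark each stretch that matches at least 2 heat shock units, GAANNTTC or TTCNNGAA, searched on both strands.
Hspa1b (chr17:34959189-34959488, minus strand): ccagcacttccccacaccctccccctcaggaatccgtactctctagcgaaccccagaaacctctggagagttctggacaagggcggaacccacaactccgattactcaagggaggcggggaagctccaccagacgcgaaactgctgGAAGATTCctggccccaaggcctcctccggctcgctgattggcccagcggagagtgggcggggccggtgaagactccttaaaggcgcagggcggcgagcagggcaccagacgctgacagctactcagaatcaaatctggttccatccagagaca
Hspa1a (chr17:34972107-34972406, minus strand): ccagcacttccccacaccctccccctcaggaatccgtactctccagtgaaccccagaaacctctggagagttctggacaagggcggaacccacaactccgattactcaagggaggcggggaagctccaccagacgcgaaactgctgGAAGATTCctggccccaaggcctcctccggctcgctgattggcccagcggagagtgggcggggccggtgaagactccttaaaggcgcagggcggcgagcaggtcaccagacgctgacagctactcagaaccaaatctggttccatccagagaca
Hsph1 (chr5:149636287-149636586, minus strand): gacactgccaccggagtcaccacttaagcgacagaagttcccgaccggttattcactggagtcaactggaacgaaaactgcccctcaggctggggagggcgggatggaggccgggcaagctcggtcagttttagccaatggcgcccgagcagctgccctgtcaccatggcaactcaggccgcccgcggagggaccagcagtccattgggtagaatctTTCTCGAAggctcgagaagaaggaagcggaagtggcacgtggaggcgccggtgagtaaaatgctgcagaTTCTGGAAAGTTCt
Chordc1 (chr9:18292017-18292316, plus strand): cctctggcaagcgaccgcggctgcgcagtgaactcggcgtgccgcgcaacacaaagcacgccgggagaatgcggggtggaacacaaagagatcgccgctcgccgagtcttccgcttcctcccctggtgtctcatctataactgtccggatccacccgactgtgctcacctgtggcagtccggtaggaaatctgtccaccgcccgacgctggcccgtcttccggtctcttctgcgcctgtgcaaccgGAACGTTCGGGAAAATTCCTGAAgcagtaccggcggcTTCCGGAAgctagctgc
The HSP70 windows differ at 4 of 300 bases (98.7% identical) and share 1 motif stretch, while Hsph1 and Chordc1 hold 2 stretches each. Of 32851 promoter windows 15.1% hold the motif of 2 units. The motif of 3 units, GAANNTTCNNGAA or TTCNNGAANNTTC, which contains the shorter one, occurs in 198 windows (0.603%). Among the heat shock list, 9 of the 11 higher genes with a promoter entry hold 2 units and 2 hold 3 units, and among the 9 uncalled genes 3 hold 2 units and 2 hold 3 units. A match describes letters in the window and is not evidence of a bound site.

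Co-chaperones of HSP70 differed by less. Dnajb1, the HSP40 partner that delivers clients to HSP70, had 47.1, 47.3, 49.8 and 49.5 CPM at 3 months and 88.2, 95.4, 80.7 and 109 CPM at 20 months (log2 fold change 0.95, SE 0.106, adjusted p = 1.82e-04). Bag3, a nucleotide exchange factor that links HSP70 to autophagy, had 81.9, 82.7, 107 and 82.9 CPM and then 123, 135, 146 and 139 CPM (log2 fold change 0.61, SE 0.0853, adjusted p = 5.84e-04). Hsph1, the HSP110 exchange factor, had 226, 205, 205 and 186 CPM and then 273, 319.9, 258 and 342 CPM (log2 fold change 0.54, SE 0.0903, adjusted p = 0.00172). The groups did not overlap in any of these 3, and their calls were kept with all 4 scores and without any 1 library, as were those of Hspa1b, Hspa1a, Dnajb4 and Serpinh1. Chordc1, an HSP90 co-chaperone whose promoter holds the longest motif, overlapped between the ages, with 77.3 to 96.4 CPM at 3 months and 88.6 to 111 CPM at 20 months (log2 fold change 0.28, SE 0.0865, adjusted p = 0.0354). Its call was lost with the mucosa score, with the muscle and bone score, and without any 1 of 6 libraries. The mitochondrial chaperonin partner Hspe1, which also holds 3 units, had 58.8, 54.1, 51.8 and 58.0 CPM and then 56.7, 64.1, 64.2 and 64.6 CPM and did not pass the test (log2 fold change 0.16, SE 0.0739, adjusted p = 0.128).

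Genes of the unfolded protein response of the endoplasmic reticulum differed by smaller amounts. Of 24 members of the unfolded protein response list 10 were higher and 1 was lower, with a median log2 fold change of 0.12, and 3 of the 10 were kept with all 4 scores. Without replicate 1 of the young group 6 were higher, and the lower count was 0 or 2 depending on the library left out. Those kept were Xbp1, the transcription factor spliced by IRE1, Edem1, which directs misfolded glycoproteins to degradation, and Hspa5, the luminal HSP70 BiP. Xbp1 had 108, 125, 117 and 114 CPM at 3 months and 156, 155, 136 and 175 CPM at 20 months (log2 fold change 0.43, SE 0.0737, adjusted p = 0.00205). Hspa5 had 559, 539, 498 and 528 CPM and then 664, 689.5, 613 and 681 CPM (log2 fold change 0.32, SE 0.0613, adjusted p = 0.00362). For Edem1 the log2 fold change was 0.60 (SE 0.105, adjusted p = 0.00219). None of the 3 genes overlapped between the ages. Xbp1 is also abundant in plasma cells and stands on the lymphocyte list, of which 12 of 20 tested members were higher, and the part of those cells in its level was not tested.

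The 12 largest increases outside the immune lists, among genes with a mean of at least 10 CPM at the higher age and no overlap, held the HSP70 copies and 10 other genes, first among them Nr4a3. Nr4a3, an orphan nuclear receptor induced within minutes of stimulation, had 0.914, 1.68, 0.877 and 1.75 CPM at 3 months and 20.1, 8.16, 28.4 and 19.1 CPM at 20 months. The lowest old library, replicate 2, was still above every young one, and the log2 fold change was 3.86 (SE 0.390, adjusted p = 1.37e-04). Fosl2, an AP-1 subunit, had 7.84, 12.1, 11.0 and 12.3 CPM and then 38.2, 26.2, 47.0 and 45.4 CPM (log2 fold change 1.86, SE 0.186, adjusted p = 1.10e-04). Rgs16, which shortens G protein signals, had 1.86, 4.47, 2.63 and 3.30 CPM and then 19.6, 6.71, 19.6 and 14.9 CPM (log2 fold change 2.31, SE 0.388, adjusted p = 0.00229). Of the exonic bases of Rgs16 10.1% are shared with an antisense gene, Gm28513. In all 3, replicate 2 of the old group, the old library with the lowest brain score, was the lowest old library.

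Cyp26b1, which breaks down retinoic acid, had 5.69, 3.91, 3.54 and 5.02 CPM in the young libraries and 26.3, 8.03, 29.2 and 17.7 CPM in the old ones (log2 fold change 2.16, SE 0.335, adjusted p = 0.00154). Its old libraries ranked in the order of the brain score, and among libraries of 1 age it rose with the brain score (slope 1.13 per unit of the score, adjusted p = 0.0232). Kcne4, an inhibitory subunit of voltage-gated potassium channels, had 2.80, 3.13, 2.39 and 4.67 CPM and then 10.9, 8.26, 18.6 and 17.8 CPM (log2 fold change 2.09, SE 0.308, adjusted p = 8.83e-04). The cardiac troponin T gene Tnnt2 rose from 1.81 to 3.18 CPM at 3 months to 7.79 to 14.0 CPM at 20 months (log2 fold change 2.17, SE 0.413, adjusted p = 0.00378), in contrast to the skeletal muscle genes described below. The little-studied membrane protein gene Tmem252 had 1.12 to 3.45 CPM and then 8.97 to 20.1 CPM (log2 fold change 2.46, SE 0.443, adjusted p = 0.00311). The calls of these 4 genes, and those of Nr4a3, Fosl2 and Rgs16, were kept with all 4 scores and without any 1 library.

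The other 3 of the 12 largest increases moved with a tissue score. The ciliary outer arm dynein Dnah5 had 1.74, 1.71, 0.605 and 2.44 CPM at 3 months and 19.9, 11.5, 3.24 and 6.33 CPM at 20 months (log2 fold change 2.65, SE 0.783, adjusted p = 0.0334). The inner arm dynein Dnah6 had 3.09, 2.64, 1.15 and 1.92 CPM and then 20.7, 11.1, 4.31 and 6.82 CPM (log2 fold change 2.28, SE 0.558, adjusted p = 0.0142). Over the old libraries both followed the order of the mucosa score, and both calls were lost with that score in the fit. Dnah5 is itself a gene of the mucosa score, so its match with that score is in part built in. Dnah5 was also lost with the marrow and blood and brain scores and without any 1 of 6 libraries. Calb1, a calcium buffer of Purkinje cells that the cochlea also expresses, had 27.1, 17.1, 15.7 and 22.1 CPM and then 52.6, 42.9, 209.5 and 46.0 CPM (log2 fold change 2.10, SE 0.508, adjusted p = 0.0165). Replicate 3 of the old group, the library with the highest brain score, stood far above the other three, and the call was lost with the brain score and with that of muscle and bone. Calb1 is a gene of the brain score, so its match with that score is in part built in too.

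**Figure D2:**
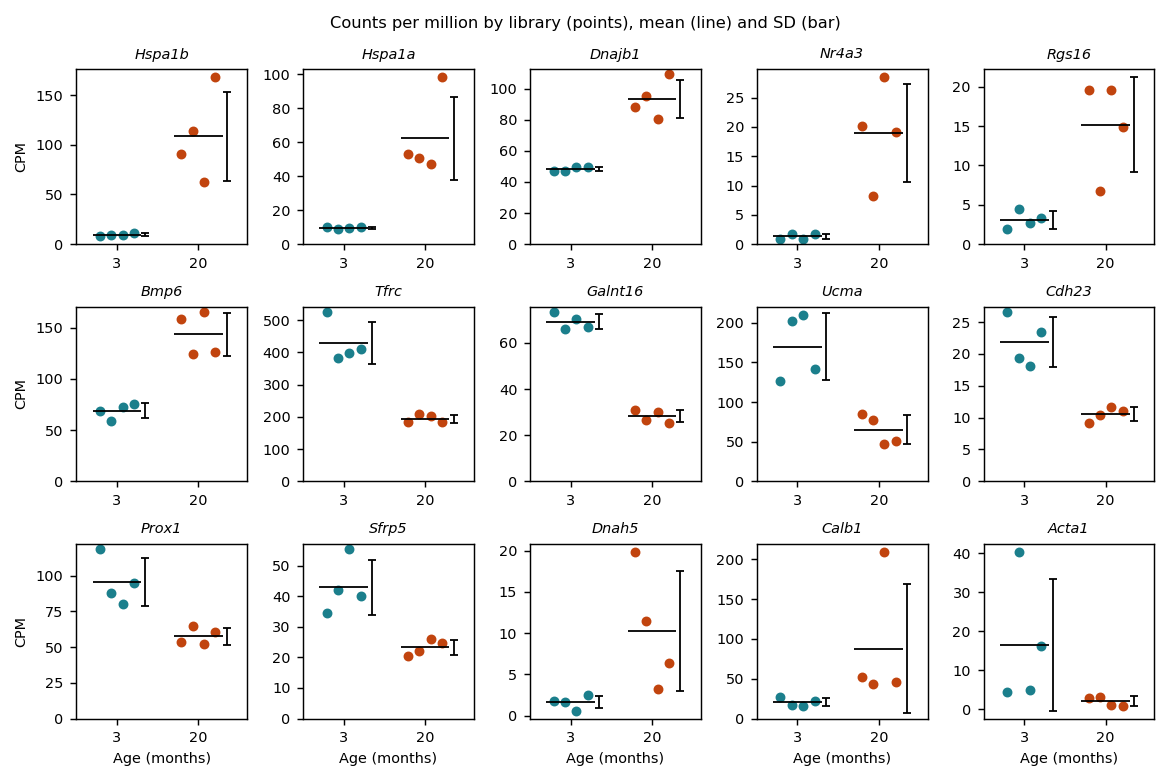
CPM (y axis) of 15 genes by age in months (x axis); points are the 4 libraries of each age, the line is the mean and the bar the SD. The top row and Bmp6 show groups that do not overlap, and Calb1 shows 1 old library at 209.5 CPM above 3 others between 42.9 and 52.6 CPM.

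Tfrc, the transferrin receptor through which cells import iron, was among the 12 largest decreases. Tfrc (chr16:32608896-32632794) had 525, 382, 397 and 412 CPM at 3 months and 185, 207, 203 and 183 CPM at 20 months. The old libraries spanned a narrow range far below the young ones, and the log2 fold change was -1.14 (SE 0.101, adjusted p = 5.65e-05). Its call was kept with all 4 scores and without any 1 library, with an adjusted p of at most 0.00152 over the alternatives other than the minimum fold. Of 20 genes on the metal and iron list 3 were higher and 2 were lower, against 12.0% and 10.7% of all tested genes, with a median log2 fold change of 0.13. The lower count was 1 without replicate 1 or without replicate 4 of the old group. The ferritin heavy chain Fth1, which stores iron, did not pass the test, with 2889 to 3228 CPM at 3 months and 2803 to 3880 CPM at 20 months (log2 fold change 0.13, SE 0.0988, adjusted p = 0.38).

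Among the other genes of the 12 largest decreases, several were kept with all 4 scores. Galnt16 (chr12:80518471-80603898), an enzyme that starts O-linked glycosylation, had 73.4, 66.1, 70.4 and 67.0 CPM in the young libraries and 31.1, 26.4, 29.9 and 25.5 CPM in the old ones. The spread within each age was small, and the log2 fold change was -1.29 (SE 0.0859, adjusted p = 8.38e-06), although 10.9% of its exonic bases are shared with the antisense gene Gm26777. Slco5a1, a solute carrier of the organic anion transporter family, had 198, 151, 134 and 151 CPM and then 60.7, 76.7, 62.0 and 75.6 CPM (log2 fold change -1.21, SE 0.135, adjusted p = 2.19e-04). Sult5a1, a sulfotransferase, had 14.3, 18.2, 12.8 and 15.4 CPM and then 5.13, 2.81, 2.96 and 3.71 CPM (log2 fold change -2.05, SE 0.201, adjusted p = 9.43e-05). In each, every old library was lower than every young one. Cntnap5c of the neurexin superfamily had a log2 fold change of -1.496 (SE 0.195, adjusted p = 4.40e-04), Ripor3 of -1.96 (SE 0.308, adjusted p = 0.00149), Mab21l2 of -1.32 (SE 0.137, adjusted p = 1.19e-04), Fcrlb of -1.16 (SE 0.147, adjusted p = 4.47e-04) and the growth cone protein gene Basp1 of -1.18 (SE 0.145, adjusted p = 3.08e-04). These calls were kept with all 4 scores and without any 1 library. Summed neuronal markers were also lower at 20 months, at 11640 to 16870 CPM against 17760 to 22430 CPM, and their part in these decreases was not tested.

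A pair of cartilage matrix genes was lower. Ucma, a protein secreted by chondrocytes, had 127, 202, 210.1 and 141 CPM at 3 months and 84.9, 77.8, 47.2 and 51.4 CPM at 20 months (log2 fold change -1.38, SE 0.248, adjusted p = 0.0037). Hapln1, which links aggrecan to hyaluronan, had 61.5, 49.0, 43.0 and 50.8 CPM and then 31.2, 31.7, 37.6 and 32.3 CPM (log2 fold change -0.62, SE 0.103, adjusted p = 0.00158). The ages did not overlap for either gene, and both calls were kept with all 4 scores. Of the 10 tested members of the cartilage list 1 was higher and 2 were lower, against 10.7% lower of all tested genes, with a median log2 fold change of -0.31, and without replicate 4 of the old group 4 were lower. The increase of the 1 higher member, the transcription factor Sox9, was lost without any 1 of 5 libraries.

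The steepest falls among genes with a mean of at least 10 CPM and no overlap, Acta1 and Bglap2, belonged to muscle and bone. Acta1, skeletal muscle actin, had 4.36, 40.3, 4.99 and 16.1 CPM in the young libraries and 2.96, 3.16, 1.16 and 0.685 CPM in the old ones (log2 fold change -3.04, SE 0.758, adjusted p = 0.017). Bglap2, an osteocalcin gene, had 8.10, 8.35, 11.6 and 22.4 CPM and then 2.02, 5.45, 0.856 and 3.24 CPM (log2 fold change -2.13, SE 0.498, adjusted p = 0.0114). The young libraries 2 and 4, which had the highest muscle score (3.62) and the highest bone score (3.90) of the 8 libraries, also held the highest value of Acta1 and of Bglap2, in that order. Both calls were lost with the muscle and bone score, and Acta1 also with the brain score. Acta1 is a gene of the muscle score and Bglap2 of the bone score, so their match with these scores is in part built in.

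Genes with the smallest p that were kept with all 4 scores were singled out after their values were seen. Plat, tissue plasminogen activator, had 58.9, 57.4, 67.1 and 59.9 CPM at 3 months and 149, 118, 144 and 123 CPM at 20 months (log2 fold change 1.14, SE 0.081, adjusted p = 9.37e-06). The cell cycle cyclin Ccnd1, also a glial and epithelial gene, had 13.1, 14.4, 17.7 and 16.2 CPM and then 42.8, 39.2, 30.9 and 41.6 CPM (log2 fold change 1.33, SE 0.123, adjusted p = 7.24e-05), with 21.9% of its exonic bases shared with LTO1 on the other strand. No old library of either gene came down to the young range. Sema3e, a secreted guidance cue, had 314, 227, 210.5 and 257 CPM and then 110.1, 123, 105 and 122 CPM (log2 fold change -1.13, SE 0.119, adjusted p = 1.37e-04). Lrrtm3, a synaptic adhesion protein gene, had 30.7 to 40.5 CPM and then 15.4 to 16.9 CPM (log2 fold change -1.06, SE 0.0896, adjusted p = 3.90e-05). Phospho1, a phosphatase of matrix vesicles, had 96.1 to 104 CPM and then 55.7 to 65.5 CPM (log2 fold change -0.70, SE 0.0572, adjusted p = 3.79e-05), but 83.2% of its exonic bases are also exonic in Abi3 on the other strand, so reads of the pair cannot be told apart there. All 5 calls were kept without any 1 library.

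**Figure D3:**
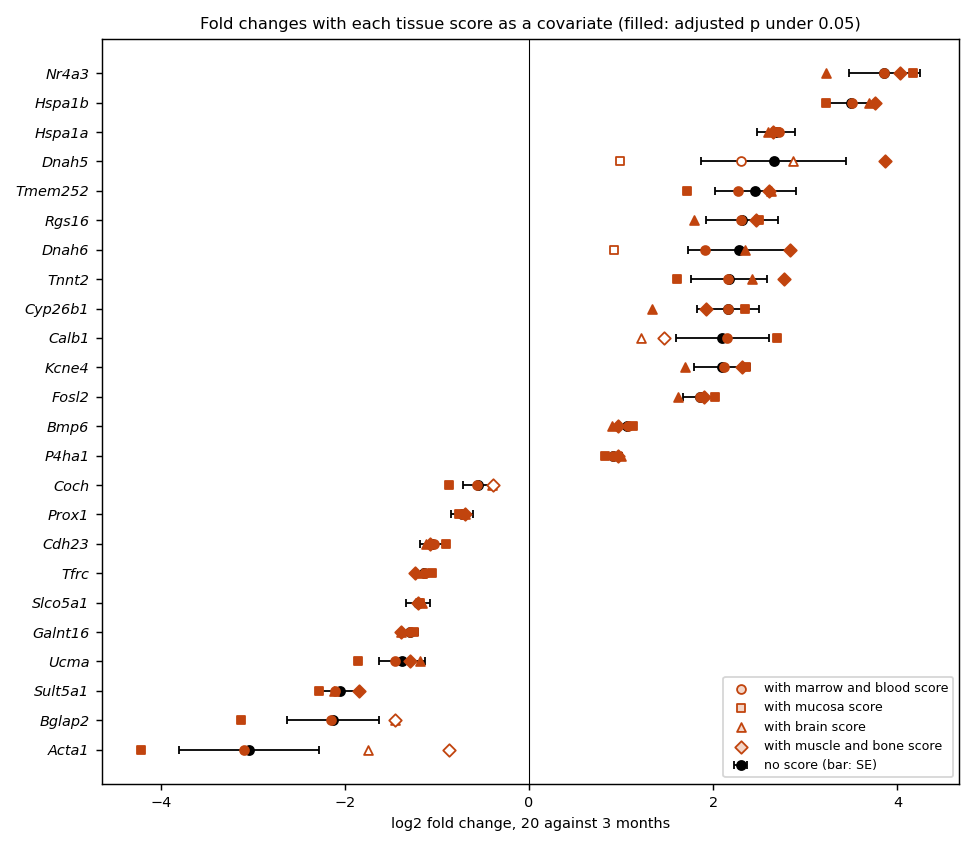
Log2 fold changes of 20 against 3 months (x axis) for 24 genes (y axis); black points with SE bars are from the fit of age alone and the coloured symbols from fits with 1 tissue score each, filled where the adjusted p is under 0.05. Nr4a3, the HSP70 copies, Galnt16 and Tfrc are filled in every fit, while Dnah5, Calb1, Acta1 and Bglap2 have open symbols for at least 1 score. Dnah5, Calb1, Acta1 and Bglap2 are themselves genes of the mucosa, brain, and muscle and bone scores.

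Potassium channel genes held more decreases than increases, except with the mucosa score in the fit or with a minimum fold of 1.5. Channels set the resting potential of hair cells, neurons and stria cells and carry potassium through the lateral wall. Of 80 tested genes with a symbol starting with Kcn, a group formed after values were seen, 7 were higher and 18 were lower, against 12.0% and 10.7% of all tested genes, with a median log2 fold change of -0.20. Without replicate 1 of the old group the counts were 4 and 12, and with a minimum fold of 1.5 they were 2 and 1. With the mucosa score 8 were higher and 6 were lower, at a median of -0.13, and 4 and 6 of the original calls were kept. The voltage-gated subunits Kcna1, Kcna2 and Kcnc1, which shape firing of auditory neurons, had log2 fold changes of -0.48, -0.48 and -0.60 with SE of 0.109, 0.122 and 0.120, and each call was lost with the mucosa score. Summed neuronal markers were also lower at 20 months, at 11640 to 16870 CPM against 17760 to 22430 CPM, and their part in the channel values was not tested.

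Among all Kcn genes 9 calls were kept with all 4 scores, and several of these are of the background-channel families. Kcnk1, the TWIK-1 leak channel, had 348, 339, 322 and 341 CPM at 3 months and 213, 244, 213 and 226 CPM at 20 months (log2 fold change -0.59, SE 0.0595, adjusted p = 9.66e-05). Kcnab2, a beta subunit of Kv1 channels, had 895, 751, 795 and 828 CPM and then 486, 558, 662 and 546 CPM (log2 fold change -0.54, SE 0.0895, adjusted p = 0.00167). For both, the highest old library was below the lowest young one. Kcnk5, the TASK-2 channel, had 16.3, 23.6, 21.5 and 22.7 CPM and then 48.2, 37.3, 36.2 and 37.5 CPM (log2 fold change 0.92, SE 0.152, adjusted p = 0.00167). Kcnk12, the silent THIK-2 subunit, had 5.17 to 8.17 CPM and then 14.6 to 18.0 CPM (log2 fold change 1.13, SE 0.150, adjusted p = 4.66e-04). The 2-pore channel genes therefore moved in opposite directions, Kcnk1 lower and Kcnk5 and Kcnk12 higher.

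**Figure D4:**
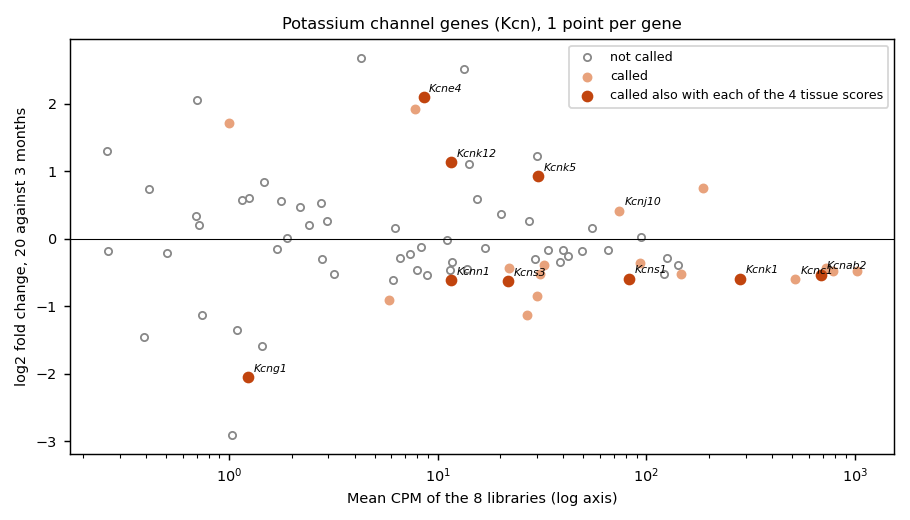
Log2 fold change (y axis) against mean CPM of the 8 libraries on a log axis (x axis) for the 80 tested Kcn genes, 1 point per gene; open points are not called and the dark points are called also with each of the 4 tissue scores. Kcne4, Kcnk12 and Kcnk5 lie above 0 and Kcnk1 and Kcnab2 below it.

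Markers of the stria vascularis and of the structures that cover the hair cells gave few calls. None of the 11 marginal cell genes of the stria vascularis was called by edgeR, at a median log2 fold change of 0.02, and DESeq2 and an unadjusted p under 0.05 gave 0 as well. None of the 14 tested genes of the tectorial membrane and otoconia was called by edgeR, at a median of -0.12, while DESeq2 called 1 higher and 1 lower and 2 and 1 had an unadjusted p under 0.05. Leaving out 1 library at a time never brought a marginal cell gene past the threshold and brought at most 1 tectorial or otoconial gene past it in either direction. The inward rectifier Kcnj10 of the intermediate cells, the single called gene of 16 on the intermediate cell and melanocyte list, had 62.2, 65.3, 67.6 and 58.4 CPM and then 82.6, 112, 68.8 and 75.4 CPM (log2 fold change 0.42, SE 0.140, adjusted p = 0.0494). Its call was lost with 3 of the 4 scores and without any 1 of 7 libraries, and the gene is also expressed by glia. Of 10 genes of pendrin and proton pump cells 2 were higher and 0 were lower by edgeR and by DESeq2, and 2 and 1 at an unadjusted p under 0.05. The higher genes were Anxa1 (log2 fold change 1.14, SE 0.319, adjusted p = 0.0286) and the ATP-gated channel P2rx2 (0.73, SE 0.203, adjusted p = 0.0247), both lost with the mucosa score, and the higher count was 0 without any 1 of 3 libraries and 1 without replicate 1 or 4 of the old group. Stria genes varied widely within the old group: the melanocyte enzyme Dct ranged from 635 to 1241 CPM at 3 months and from 197 to 1250 CPM at 20 months.

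Supporting cells showed changes in both directions. Of 15 tested members 3 were higher and 2 were lower, against 12.0% and 10.7% of all tested genes, with a median log2 fold change of 0.27. Prox1, a transcription factor of pillar and Deiters cells, had 119, 88.0, 80.2 and 94.9 CPM at 3 months and 53.3, 64.4, 52.2 and 60.9 CPM at 20 months (log2 fold change -0.73, SE 0.119, adjusted p = 0.00158). Lgr6, a receptor for R-spondins found in inner pillar cells, had 4.63, 5.68, 4.20 and 4.99 CPM and then 11.1, 14.8, 8.56 and 10.1 CPM (log2 fold change 1.19, SE 0.225, adjusted p = 0.00324). Neither gene overlapped between the ages, and these 2 calls were kept with all 4 scores. Cdkn1b, the cell cycle inhibitor p27Kip1 that keeps supporting cells from dividing, had 301, 263, 262 and 295 CPM and then 232, 231, 212 and 233 CPM (log2 fold change -0.30, SE 0.067, adjusted p = 0.00715), and its call was lost with the muscle and bone score. Slc1a3, a glutamate transporter of inner phalangeal and glial cells, had 110.2 to 126 CPM and then 141 to 211 CPM (log2 fold change 0.60, SE 0.102, adjusted p = 0.00191). It rose with the brain score among libraries of 1 age (slope 0.35, adjusted p = 0.0492).

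Of 30 tested hair cell genes 5 were lower and none was higher by edgeR, with a median log2 fold change of -0.24. DESeq2 gave 8 and 0, and 9 and 1 had an unadjusted p under 0.05. The lower count was 2 without replicate 1 and 3 without replicate 4 of the young group, and 3 without replicate 2 of the old group. Cdh23, the upper part of the tip link, had 26.6, 19.4, 18.1 and 23.4 CPM in the young libraries and 9.07, 10.4, 11.7 and 11.0 CPM in the old ones. It was the only one of the 5 kept with all 4 scores. The transduction channel subunit gene Lhfpl5 had 12.6, 10.1, 11.6 and 13.0 CPM and then 7.68, 7.58, 9.26 and 7.29 CPM (log2 fold change -0.57, SE 0.114, adjusted p = 0.00432), without overlap, and was lost with the mucosa score. Clrn1, an Usher syndrome gene, had a log2 fold change of -0.43 (SE 0.127, adjusted p = 0.0282) and the calcium-binding partner of the channel Cib2 one of -0.29 (SE 0.0862, adjusted p = 0.0277), with 15.8% of its exonic bases shared with Sh2d7 on the other strand. The outer hair cell motor prestin, Slc26a5, had 24.7, 7.82, 15.8 and 27 CPM and then 12.1, 6.48, 9.96 and 6.98 CPM, with overlapping groups (log2 fold change -1.08, SE 0.345, adjusted p = 0.0417). The calls of Clrn1, Cib2 and Slc26a5 were each lost without some single libraries.

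Gene lists of junctions and fibrocytes held calls in both directions, to be read against 12.0% higher and 10.7% lower of all tested genes. Of 14 connexin and tight junction genes 3 were higher and 1 was lower, at a median log2 fold change of 0.23, and without replicate 1 of either age 1 was higher. Tjp1, the tight junction scaffold ZO-1, had 213, 232, 209 and 231 CPM and then 339.5, 279, 315 and 311 CPM (log2 fold change 0.49, SE 0.0679, adjusted p = 5.74e-04). Gjc3, a connexin of glia and of the cochlea, had 133, 132, 124 and 114 CPM and then 92.7, 89.7, 96.9 and 102 CPM (log2 fold change -0.40, SE 0.0633, adjusted p = 0.00132). These 2 calls were kept with all 4 scores, and Ildr1 of the tricellular junction was not (log2 fold change 0.62, SE 0.185, adjusted p = 0.0309). Of 13 fibrocyte genes 2 were higher and 1 was lower, at a median of 0.21. Leaving out replicate 1 of either age gave 1 higher, and leaving out any of 4 libraries gave 0 lower.

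Enzymes that finish collagen held more increases than decreases. Of 24 collagen processing genes 8 were higher and 1 was lower, with a median log2 fold change of 0.21, and 4 of the 8 were kept with all 4 scores. Leaving out 1 library gave 7 to 9 higher. P4ha1, the catalytic subunit of prolyl 4-hydroxylase, had 44.5, 50.9, 49.1 and 46.1 CPM at 3 months and 85.6, 91.8, 74.3 and 107 CPM at 20 months (log2 fold change 0.91, SE 0.0927, adjusted p = 1.05e-04). Its paralogue P4ha2 rose from 5.68 to 6.59 CPM to 9.64 to 14.0 CPM (log2 fold change 0.94, SE 0.180, adjusted p = 0.00352). The third paralogue, P4ha3, fell from 21.2 to 25.7 CPM to 15.9 to 20.0 CPM (log2 fold change -0.46, SE 0.103, adjusted p = 0.00808). The 3 paralogues thus split, and the calls of P4ha2 and P4ha3, unlike that of P4ha1, were lost with the muscle and bone score.

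Other processing genes included Pcolce, an enhancer of procollagen C-proteinase, which had 28.3, 35.5, 37.1 and 46.8 CPM and then 84.0, 55.9, 95.3 and 87.4 CPM (log2 fold change 1.13, SE 0.173, adjusted p = 0.00135). The collagen chaperone Serpinh1, also on the heat shock list, had 122, 171, 128 and 166 CPM and then 225, 202, 212 and 268 CPM (log2 fold change 0.63, SE 0.122, adjusted p = 0.00385). The crosslinking enzyme Loxl4 had a log2 fold change of 1.10 (SE 0.231, adjusted p = 0.00552). None overlapped between the ages, and with P4ha1 these are the 4 kept with all 4 scores. Among 11 fibrillar collagen genes 0 were higher and 2 were lower by edgeR, by DESeq2 and at an unadjusted p under 0.05, at a median log2 fold change of -0.31. The lower count was 1 without any 1 of 5 libraries. Col1a2 had 423, 428, 369.8 and 557 CPM and then 353, 347, 326 and 296 CPM (log2 fold change -0.43, SE 0.115, adjusted p = 0.0186), and its call was lost with the brain score, with that of muscle and bone, and without replicate 4 of the old group.

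Other collagens went both ways. Of 19 tested members 2 were higher and 1 was lower, at a median log2 fold change of 0.30; 4 were higher without replicate 4 of the young group and 8 without replicate 2 of the old group. Without replicate 1 of the young group or replicate 2 of the old group 2 were lower. Col15a1, a basement membrane zone collagen, had 29.5, 30.1, 31.6 and 33.2 CPM and then 21.7, 11.6, 13.1 and 14.0 CPM (log2 fold change -1.04, SE 0.177, adjusted p = 0.002). Col13a1, a transmembrane collagen, had 3.77, 3.60, 3.33 and 6.45 CPM and then 11.8, 7.55, 9.29 and 10.5 CPM (log2 fold change 1.19, SE 0.228, adjusted p = 0.00352). These 2 calls were kept with all 4 scores. Col12a1, a collagen of the fibril surface, had 28.5, 27.6, 19.6 and 35.8 CPM and then 59.8, 41.1, 118 and 91.0 CPM (log2 fold change 1.48, SE 0.297, adjusted p = 0.00648). Its order over the old libraries matched that of the brain score except that replicates 1 and 4 changed places, and the call was lost with the brain score and with that of muscle and bone.

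Proteoglycans, proteases and elastic fibre genes were mostly higher where they were called. Of 13 small leucine-rich proteoglycan genes 4 were higher and 1 was lower, at a median log2 fold change of 0.55, but the higher count was 1 without replicate 1 of either age and 2 without replicate 2 of the young group or replicate 3 or 4 of the old group. The 1 lower call was lost without any 1 of 5 libraries. Prelp, which anchors basement membranes to connective tissue, was the 1 kept with all 4 scores, with 64.3, 88.5, 91.9 and 97.6 CPM and then 178, 135, 139.6 and 147 CPM (log2 fold change 0.81, SE 0.118, adjusted p = 8.31e-04). Of 16 elastic fibre genes 3 were higher and 0 were lower by edgeR, 3 and 1 by DESeq2 and 5 and 1 at an unadjusted p under 0.05. The median was 0.44, and 5 were higher without replicate 2 of the old group. Efemp1, the fibulin linked to elastic tissue, had 157, 167, 135 and 171 CPM and then 272, 194, 355 and 309 CPM (log2 fold change 0.84, SE 0.146, adjusted p = 0.0024).

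Of 25 matrix proteases and inhibitors 6 were higher and 2 were lower, at a median log2 fold change of 0.28. Without replicate 1 of the young group 2 were higher and 1 was lower, and without replicate 1 of the old group 3 and 1. Replicate 4 of the young group and replicate 2 of the old group, left out, also gave 1 lower. The aggrecanase Adamts5 was the 1 call kept with all 4 scores, with 104, 104, 94.9 and 100.5 CPM in the young libraries and 65.0, 60.4, 66.1 and 55.6 CPM in the old ones (log2 fold change -0.71, SE 0.0683, adjusted p = 9.43e-05). Its neighbour on chromosome 16, Adamts1, went the other way, with 37.8, 41.1, 32.6 and 48.1 CPM and then 99.9, 54.4, 159 and 133 CPM (log2 fold change 1.48, SE 0.297, adjusted p = 0.00645). The Adamts1 call was lost with the brain score and with that of muscle and bone. Of 21 basement membrane genes 5 were higher and 0 were lower by edgeR, 6 and 0 by DESeq2 and 8 and 2 at an unadjusted p under 0.05. The median was 0.06, and 2 were higher without replicate 1 of either age or without replicate 4 of the old group.

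Signalling of the TGF-beta superfamily was among the lists with the most increases. Its ligands bind paired serine kinase receptors that pass the signal to SMAD proteins. Of 32 genes 12 were higher and 2 were lower, with a median log2 fold change of 0.39, and 5 of the 12 were kept with all 4 scores. Leaving out 1 library gave 9 to 17 higher. Among the ligands, Bmp6 had 68.8, 58.4, 72.4 and 75.6 CPM at 3 months and 158, 124, 165 and 126 CPM at 20 months (log2 fold change 1.06, SE 0.105, adjusted p = 9.43e-05), and 6.23% of its exonic bases are shared with Txndc5. Bmp5 had 14.7, 21.8, 19.3 and 23.8 CPM and then 37.7, 25.2, 39.8 and 32.5 CPM (log2 fold change 0.76, SE 0.152, adjusted p = 0.00426), but 49.1% of its exonic bases are shared with Gm26903 on the other strand, so reads of the 2 genes cannot be told apart there.

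Of the receptors, Tgfbr1, the type I receptor for TGF-beta, had 34.6, 33.7, 32.7 and 33.3 CPM and then 57.4, 43.1, 49.1 and 57.2 CPM (log2 fold change 0.62, SE 0.0889, adjusted p = 6.90e-04). The type II BMP receptor Bmpr2 fell from 293, 251, 261 and 253 CPM to 198, 219.5, 231 and 224 CPM (log2 fold change -0.28, SE 0.073, adjusted p = 0.0164). Its call was lost with the mucosa score and without replicate 1 of the old group, where no gene of the list was lower, and the lower count was 1 without any 1 of 6 other libraries. The signal transducer Smad3 had 23.7, 24.4, 22.5 and 25.4 CPM and then 49.6, 36.0, 55.0 and 50.7 CPM (log2 fold change 1.00, SE 0.112, adjusted p = 1.82e-04). Receptor, transducer and both ligands did not overlap between the ages.

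In the Wnt pathway 7 of 30 genes were higher and 1 was lower, at a median log2 fold change of 0.36, and 4 were higher without replicate 1 or replicate 4 of the young group. The secreted inhibitor Sfrp5 had 34.4, 41.9, 55.4 and 39.9 CPM and then 20.5, 22.1, 26.0 and 24.6 CPM (log2 fold change -0.88, SE 0.137, adjusted p = 0.00119). The related Sfrp1 moved the other way, with 40.8, 33.5, 43.7 and 44.1 CPM and then 61.1, 58.0, 55.2 and 65.6 CPM (log2 fold change 0.57, SE 0.121, adjusted p = 0.00623). The ligand Wnt5a had 111, 129, 130.2 and 120.0 CPM and then 152, 148, 177 and 158 CPM (log2 fold change 0.38, SE 0.0729, adjusted p = 0.00361). No group overlapped, and Sfrp5 and the receptor Lgr6 were the calls kept with all 4 scores.

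For Notch signalling, through which supporting and hair cell fates are set, 2 of 18 genes were higher and 3 were lower, at a median log2 fold change of 0.16. The shares among all tested genes were 12.0% and 10.7%. Notch1 had 73.9, 90.2, 84.6 and 80.2 CPM and then 113, 131, 97.1 and 121 CPM (log2 fold change 0.49, SE 0.0862, adjusted p = 0.00222), with 10.2% of its exonic bases shared with an antisense gene. The receptor Notch2 had 84.0, 89.8, 87.4 and 98.1 CPM and then 144, 101, 159 and 122 CPM (log2 fold change 0.55, SE 0.124, adjusted p = 0.00846). Rfng, a fringe enzyme that modifies the receptors, had 45.8, 51.2, 50.2 and 49.6 CPM and then 35.4, 36.0, 36.6 and 42.5 CPM (log2 fold change -0.39, SE 0.072, adjusted p = 0.00302). The other receptors, given after their values were seen, went different ways: Notch3 did not pass the test (log2 fold change 0.21, SE 0.181, adjusted p = 0.419) and Notch4, of blood vessels, was lower (-0.46, SE 0.141, adjusted p = 0.0322). The third lower gene was the ligand Jag2 (-0.40, SE 0.0994, adjusted p = 0.0124), and Notch1 and Rfng were kept with all 4 scores.

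Circadian clock genes had 6 of 20 members higher and 1 lower, at a median log2 fold change of 0.14, with 5 to 6 higher when 1 library was left out. The activator Arntl, known as BMAL1, had 15.5, 14.3, 12.7 and 16.8 CPM and then 19.3, 24.3, 24.7 and 23.6 CPM (log2 fold change 0.63, SE 0.103, adjusted p = 0.00155). It was the 1 call of the list kept with all 4 scores. The repressor Per1, which the activator drives, had 99.8, 98.5, 104 and 98.5 CPM and then 127, 137, 109 and 144 CPM (log2 fold change 0.37, SE 0.0854, adjusted p = 0.00902). Bhlhe40 had a log2 fold change of 0.58 (SE 0.116, adjusted p = 0.00428) and the output factor Hlf one of 0.34 (SE 0.0737, adjusted p = 0.00701). The hour of tissue collection is not given in the sources used here, so time of day and age cannot be told apart for these genes.

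Genes of the glucocorticoid response had 8 of 18 members higher and 1 lower, at a median of 0.21, with 6 to 7 higher when 1 library was left out and 2 lower without replicate 2 of the old group. Nfkbia, the inhibitor of NF-kappaB and also a target of it, had 48.5, 51.3, 50.3 and 54.0 CPM and then 93.8, 85.4, 70.1 and 77.2 CPM (log2 fold change 0.68, SE 0.0806, adjusted p = 2.45e-04). Pdk4, a kinase that switches off pyruvate dehydrogenase, had 30.7, 25.6, 28.6 and 31.8 CPM and then 52.8, 50.2, 38.8 and 44.7 CPM (log2 fold change 0.68, SE 0.111, adjusted p = 0.00155). These were the 2 kept with all 4 scores, and neither overlapped. Nfkbia also stands on the NF-kappaB and complement list, of which 21 of 28 tested members were higher and 0 lower. The part of that immune change in the Nfkbia level was not tested. The receptor itself, Nr3c1, had 69.0, 71.8, 78.0 and 77.2 CPM and then 101, 82.0, 97.9 and 101 CPM (log2 fold change 0.37, SE 0.078, adjusted p = 0.0059).

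Antioxidant genes had 8 of 30 members higher and 3 lower, against 12.0% and 10.7% of all tested genes, at a median log2 fold change of 0.05. Without replicate 1 of the young group 5 were higher, without replicate 1 of the old group 4, and without replicate 3 of the old group 5 were lower. Nfe2l2, the transcription factor NRF2 that drives many of them, had 50.5, 59.8, 63.9 and 61.5 CPM and then 87.7, 75.9, 98.3 and 98.4 CPM (log2 fold change 0.61, SE 0.0953, adjusted p = 0.00114). Keap1, which marks NRF2 for degradation, fell from 94.6 to 98.2 CPM to 79.2 to 85.0 CPM (log2 fold change -0.24, SE 0.0547, adjusted p = 0.00882), and 11.3% of its exonic bases are shared with an antisense gene. The peroxiredoxin Prdx6 had 152, 155, 175 and 168 CPM and then 240.4, 198, 239 and 229.5 CPM (log2 fold change 0.48, SE 0.0871, adjusted p = 0.00272). The glutathione transferase Gstm2 had a log2 fold change of 0.78 (SE 0.145, adjusted p = 0.00302). Nfe2l2, Prdx6 and Gstm2 were kept with all 4 scores, and Keap1 and the mitochondrial superoxide dismutase Sod2 (log2 fold change -0.26, SE 0.0533, adjusted p = 0.00532) were lost with the mucosa score.

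**Figure D5:**
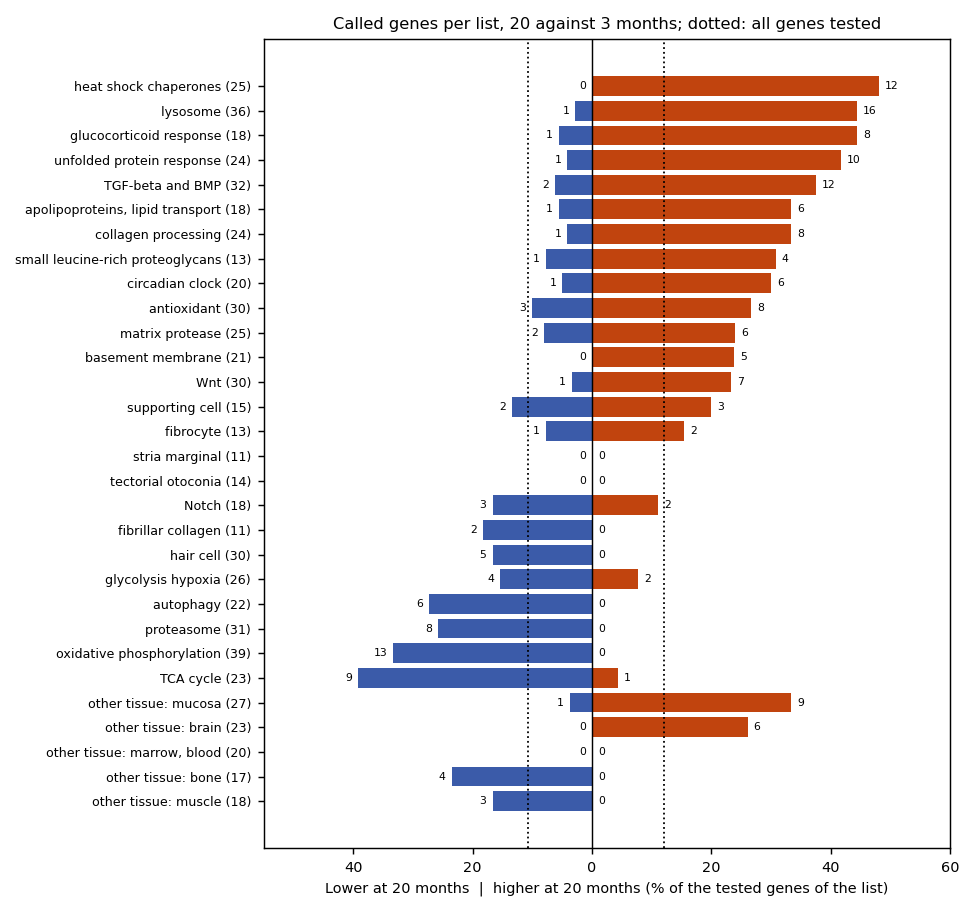
Percent of the tested genes of each list that were called higher (right) or lower (left) at 20 than at 3 months (x axis), with the number called at the bar end and the number tested after the list name; dotted lines mark 12.0% and 10.7% of all tested genes. Heat shock chaperones have 12 of 25 members higher and none lower, and oxidative phosphorylation has 13 of 39 lower and none higher.

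Among mitochondrial energy genes the calls were small decreases with 1 exception. Of 39 oxidative phosphorylation genes 13 were lower and 0 were higher by edgeR, 17 and 0 by DESeq2 and 23 and 0 at an unadjusted p under 0.05, at a median log2 fold change of -0.15, and 1 of the 13 was kept with all 4 scores. The lower count ranged from 3 to 19 when 1 library was left out: it was 3 without replicate 1 or 4 of the old group, 7 without its replicate 2, and 6 to 8 without any 1 young library. The summed level of the list was 8658 to 9255 CPM at 3 months and 7458 to 8690 CPM at 20 months. Of 23 genes of the TCA cycle 9 were lower and 1 was higher, at a median of -0.16, and 0 of the 9 were kept with the mucosa score, with 3 lower without replicate 1 of either age or replicate 4 of the old group. The complex I subunit Ndufv1, the 1 kept with all 4 scores, had 210.0, 200.4, 199.8 and 202 CPM and then 162, 163, 175 and 157 CPM. Suclg2, the GTP-forming subunit of succinyl-CoA ligase, was the 1 higher gene, with 25.8, 25.1, 32.4 and 33.0 CPM and then 52.2, 42.7, 54.0 and 43.5 CPM (log2 fold change 0.73, SE 0.114, adjusted p = 0.00119).

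Ribosomal protein families, formed after values were seen, differed between mitochondria and cytosol in the sign of their median, except with the mucosa score in the fit. The mitochondrial count was near the 10.7% of all tested genes. Of 78 mitochondrial ribosomal protein genes 9 were lower and 0 were higher by edgeR, 11 and 0 by DESeq2 and 19 and 0 at an unadjusted p under 0.05, at a median log2 fold change of -0.10, and 0 of the 9 were kept with the mucosa score. The lower count was 2 without replicate 1 or without replicate 4 of the old group and 5 without replicate 1, 2 or 4 of the young group. The cytosolic ribosomal protein genes had 7 higher and 2 lower of 97, against 12.0% and 10.7% of all tested genes, at a median of 0.13. The higher count ranged from 1 to 16 and the lower count from 1 to 3 when 1 library was left out. With the mucosa score the cytosolic median was -0.008, with 1 higher and 0 lower, and the mitochondrial median was -0.08. Of 31 proteasome genes 8 were lower and 0 were higher by edgeR, 10 and 0 by DESeq2 and 12 and 0 at an unadjusted p under 0.05. The median was -0.12, 0 of the 8 were kept with the mucosa score, and the lower count was between 1 and 3 without any 1 of 6 libraries.

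On the joint list of glycolysis and hypoxia genes 2 of 26 were higher and 4 were lower, against 12.0% and 10.7% of all tested genes. The median log2 fold change was -0.03, and 1 gene was higher without replicate 1 of the old group. The platelet-type phosphofructokinase Pfkp had 253, 216, 253 and 211 CPM and then 160.0, 186, 177 and 157 CPM (log2 fold change -0.46, SE 0.0761, adjusted p = 0.00166), with 17.4% of its exonic bases shared with Pitrm1. It was without overlap and kept with all 4 scores. Pdk4, described above, rose in the same libraries.

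Lysosome calls were mostly increases and autophagy calls were all decreases, and most members of both lists did not pass the test. Of 36 lysosome genes 16 were higher and 1 was lower, at a median log2 fold change of 0.19, and 2 of the 16 were kept with all 4 scores. The higher count was 8 to 10 without any 1 of 6 libraries, namely replicates 1, 2 and 4 of each age, and 15 at most, and the lower count was 0 without any 1 of 5 libraries and 2 without replicate 3 of the young group. Man2b1, lysosomal alpha-mannosidase, was 1 of the 2, with 58.5, 63.1, 64.3 and 62.4 CPM and then 81.4, 77.0, 78.6 and 87.2 CPM (log2 fold change 0.39, SE 0.0577, adjusted p = 9.07e-04). Macrophages are rich in lysosomes, and 25 of 31 macrophage markers were higher at 20 months. Their part in the lysosome counts was not tested.

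Of 22 autophagy genes 6 were lower and 0 were higher by edgeR, 8 and 0 by DESeq2 and 10 and 0 at an unadjusted p under 0.05. The median was -0.12, 0 of the 6 were kept with the mucosa score, and 2 or 3 were lower without replicate 3 of the young group or replicate 1, 2 or 4 of the old group. Map1lc3b, the LC3 protein that coats autophagosomes, had 307, 302, 322 and 305 CPM and then 251, 271, 266 and 253 CPM (log2 fold change -0.25, SE 0.0513, adjusted p = 0.00532), and the call was lost with the mucosa score.

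Lipid transport genes had 6 of 18 members higher and 1 lower, at a median log2 fold change of 0.28, with 4 and 1 kept with all 4 scores and 6 to 7 higher when 1 library was left out. Lpl, the lipase that releases fatty acids from lipoproteins, had 6.60, 11.1, 6.44 and 8.11 CPM and then 19.5, 15.9, 21.6 and 24.8 CPM (log2 fold change 1.34, SE 0.188, adjusted p = 6.32e-04). Clu, the secreted chaperone clusterin that binds lipids, had 1223, 1208, 1550 and 1420 CPM and then 2005, 2036, 1736 and 2005 CPM (log2 fold change 0.53, SE 0.097, adjusted p = 0.00283). The receptor Lrp1, which takes up lipoproteins, had 422, 481, 493 and 497 CPM and then 671, 556, 743 and 721 CPM (log2 fold change 0.51, SE 0.0904, adjusted p = 0.00244). No old library of these 3 genes overlapped the young ones.

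Soat1, which stores cholesterol as esters, had 39.6 to 43.5 CPM at 3 months and 52.8 to 60.9 CPM at 20 months (log2 fold change 0.47, SE 0.0674, adjusted p = 7.38e-04). Abcg1, which exports cholesterol to lipoproteins, had 152, 145, 131 and 130.3 CPM and then 94.1, 114, 106 and 98.0 CPM (log2 fold change -0.44, SE 0.0721, adjusted p = 0.00158). The esterifying enzyme was thus higher and the exporter lower, and both calls were kept with all 4 scores. Apoe had 1438, 1854, 2122 and 1576 CPM and then 2916, 2126, 2969 and 2899 CPM (log2 fold change 0.64, SE 0.132, adjusted p = 0.00487). Replicate 2 of the old group barely exceeded the highest young library, and the Apoe call was lost with the muscle and bone score. Apoe also stands on the macrophage list, of which 25 of 31 tested members were higher, and the part of those cells in its level was not tested. The desaturase Scd1, from the fatty acid synthesis list with 3 of 17 higher and 1 lower, had 607, 601, 679.6 and 626 CPM and then 868, 1031, 855 and 872 CPM (log2 fold change 0.53, SE 0.0967, adjusted p = 0.00277). The 1 lower call of that list was lost without any 1 of 5 libraries.

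Of 23 genes of the p53 pathway and the cyclin kinase inhibitors 4 were higher and 2 were lower, at a median log2 fold change of 0.21, and the lower count was 1 without any 1 of 6 libraries. Tnfrsf10b, a death receptor that p53 induces, had 3.71, 3.04, 3.33 and 3.12 CPM and then 7.47, 8.10, 4.74 and 7.57 CPM (log2 fold change 1.08, SE 0.190, adjusted p = 0.00229). Eda2r, a receptor of the same superfamily, had 0.501, 0.776, 0.786 and 0.717 CPM and then 1.99, 3.16, 1.28 and 1.99 CPM (log2 fold change 1.59, SE 0.408, adjusted p = 0.0148), and its call was lost with the mucosa score. The mitotic kinase Cdk1 was low at both ages and had 2.77, 2.11, 2.90 and 2.92 CPM and then 0.979, 1.00, 1.38 and 1.59 CPM (log2 fold change -1.11, SE 0.260, adjusted p = 0.0095). It was the 1 lower gene of the 31 tested on the cell cycle list, where 1 was higher and the median log2 fold change was 0.32. The summed level of that list was 142.7 to 167 CPM at 3 months and 171.4 to 200.3 CPM at 20 months. The linker histone gene H1f0 had 216, 208, 230.0 and 230.4 CPM and then 171, 167, 173 and 158 CPM (log2 fold change -0.40, SE 0.0678, adjusted p = 0.00174).

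Ptgds, Fth1, Apod, Coch and Spp1 were among the 6 most abundant transcripts by FPKM, fragments scaled to gene length and library size, at 3 months. Ptgds, the prostaglandin D synthase of leptomeninges and other secretory cells, had a mean of 13070 FPKM at 3 months and 15490 FPKM at 20 months, and Apod, an apolipoprotein of Schwann cells and fibroblasts, 3032 and 3128 FPKM. Neither passed the test (log2 fold changes 0.21, SE 0.166, adjusted p = 0.39, and 0.01, SE 0.159, adjusted p = 0.982). Coch, which encodes the fibrocyte protein cochlin, had 5756, 7442, 6702 and 6006 CPM and then 4482, 4799, 3218 and 5181 CPM (log2 fold change -0.55, SE 0.168, adjusted p = 0.0324). No old library reached the young range, yet the call was lost with the brain score, with that of muscle and bone, and without any 1 of 4 libraries. Spp1, osteopontin, had 3800, 4294, 4063 and 3922 CPM and then 2798, 3683, 2359 and 2343 CPM (log2 fold change -0.52, SE 0.151, adjusted p = 0.0259), with 18.8% of its exonic bases shared with Gm42793. That call too was lost with the brain score, with that of muscle and bone, and without any 1 of 4 libraries. Spp1 also stands on the macrophage list, where it was the 1 lower gene beside 25 higher ones.

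The markers of the neighbouring tissues themselves gave uneven calls. Of 27 tested mucosa genes 9 were higher and 1 was lower, at a median log2 fold change of 1.53, and the higher count was 4 without replicate 1 and 5 without replicate 3 of the young group, 5 without replicate 1 or 2 of the old group and 18 without its replicate 3. Dnah9, an outer arm dynein, had 0.884, 1.12, 0.484 and 1.00 CPM and then 13.9, 9.19, 1.497 and 3.40 CPM (log2 fold change 3.00, SE 0.699, adjusted p = 0.0111). The epithelial keratin Krt8 had 15.0, 17.7, 20.0 and 26.0 CPM and then 71.9, 83.8, 28.8 and 43.3 CPM (log2 fold change 1.53, SE 0.444, adjusted p = 0.0327), and the membrane mucin Muc4 had 0.0589, 0.248, 0 and 0.631 CPM and then 2.58, 4.42, 0.122 and 5.89 CPM. Replicate 3 of the old group was the lowest old library for all 3. Bpifb1, another airway secretory gene, went the other way, with 1.15, 6.92, 1.09 and 3.01 CPM and then 0.415, 0.323, 0.0306 and 0.187 CPM. The list therefore did not move as 1 block, and Foxj1, the regulator of motile cilia, had 30.9 to 35.0 CPM and then 27.2 to 38.3 CPM. A family formed after values were seen, the 30 tested Cfap genes of cilia and flagella, had 10 higher and 0 lower by edgeR, 15 and 0 by DESeq2 and 16 and 0 at an unadjusted p under 0.05. Their median was 1.21, and 1 of the 10 was kept with the mucosa score. Of these genes 3 were higher without replicate 1, 6 without replicate 2 of the old group, and 5 without replicate 2 or 3 of the young group.

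Of 23 brain genes 6 were higher and 0 were lower by edgeR and by DESeq2, and 9 and 0 at an unadjusted p under 0.05, at a median log2 fold change of 0.65, and 10 were higher without replicate 2 of the old group. Gfap, the intermediate filament of astrocytes, had 239.6, 94.4, 189 and 67.5 CPM and then 416, 67.5, 750 and 495 CPM and did not pass the test (log2 fold change 1.55, SE 0.612, adjusted p = 0.0963). Cbln1, a synaptic organiser abundant in cerebellum, had 4.57, 7.07, 3.99 and 5.45 CPM and then 11.8, 8.68, 20.2 and 19.1 CPM (log2 fold change 1.505, SE 0.252, adjusted p = 0.00191) and was the 1 kept with all 4 scores. Of 18 muscle genes 3 were lower and of 17 bone genes 4, at medians of -1.56 and -0.27. The muscle count was 6 without replicate 3 of the young group and the bone count 2 without replicate 4 of the young or replicate 1 of the old group. Myl1, a myosin light chain of fast fibres, had 5.01, 14.4, 4.11 and 8.17 CPM and then 1.93, 2.42, 1.44 and 1.75 CPM, and Sp7, the osteoblast factor osterix, 6.28, 5.24, 4.02 and 10.9 CPM and then 2.85, 3.29, 2.29 and 3.21 CPM (log2 fold change -1.18, SE 0.263, adjusted p = 0.00746). None of the 20 marrow and blood genes was called by edgeR or by DESeq2, 2 were higher at an unadjusted p under 0.05, and the median was 0.56. Without replicate 4 of the old group 1 was called higher. The granule gene Ngp showed the spread, with 2.92, 19.2, 2.66 and 3.93 CPM and then 30.3, 7.13, 2.54 and 0.935 CPM.

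Which genes outside these lists varied with a score among libraries of 1 age was tested in the fit of age plus that score. The brain score had 132 such genes, 122 rising and 10 falling with it, and 20 of them were also higher and 2 lower at 20 months. The count was 3 without replicate 2 and 56 without replicate 3 of the old group, and 217 without replicate 1 of the young group. The connexin Gja1, which astrocytes and supporting tissue express, had 48.8, 25.7, 33.0 and 28.5 CPM and then 77.7, 16.4, 125 and 68.1 CPM, with a slope of 1.84 per unit of score (adjusted p = 3.74e-05). Its age difference did not pass the test (log2 fold change 1.08, SE 0.472, adjusted p = 0.129). The myelin gene Mbp had 3199, 2351, 2840 and 1953 CPM and then 4073, 1499, 4076 and 3717 CPM, with a slope of 1.04 (adjusted p = 0.00125). Its age difference did not pass the test (log2 fold change 0.37, adjusted p = 0.342), but did without replicate 2 of the old group (0.61, adjusted p = 0.00939). In both, replicate 2 of the old group was the lowest of the 8 libraries. The receptor regulator Lrig1 had a slope of 0.54 (adjusted p = 0.00479) beside an age difference of 0.57 (SE 0.144, adjusted p = 0.0141). In the other 3 old libraries Mbp was above all young ones.

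The mucosa score had 22 such genes, 8 rising and 14 falling with it, of which 1 was higher and 2 were lower at 20 months. The stress-induced regulator Nupr1 had the smallest p of these, with 49.8, 59.6, 61.5 and 63.0 CPM and then 109, 85.8, 49.6 and 67.1 CPM (slope 0.64, adjusted p = 0.0306). The number of genes that follow the mucosa score was 0 without replicate 3, 1 without replicate 1 and 8 without replicate 2 of the old group, and 82, 66 and 308 without replicates 1, 2 and 3 of the young group. The marrow and blood score had 1, the protease inhibitor gene Ctla2a, with 7.49, 17.5, 10.8 and 16.9 CPM and then 34.6, 15.0, 12.1 and 9.60 CPM (slope 0.88, adjusted p = 0.00217) and 23.5% of its exonic bases shared with Gm49391 on the same strand, and the count was 1 to 4 when 1 library was left out, with 2 without replicate 3 of the young group or replicate 1 or 2 of the old group and 4 without replicate 4 of the young group. The muscle and bone score had 0 by edgeR, against 1076 genes at an unadjusted p under 0.05, and 46 without replicate 1 of the young group, 4 without replicate 1 and 10 without replicate 2 of the old group. The smallest of the 4 counts thus belonged to the score whose addition removed the most higher calls.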

How the data were processed

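Whole-transcriptome RNA-seq of the inner ear was analysed in 12 libraries, 4 each at 3, 11 and 20 months. Per the labels' protocols, libraries were made with the TruSeq RNA Library Prep Kit v2, which does not mark strand, and sequenced on an Illumina platform. The submitters' processing notes list the build mm10 and the tools HTSeq, HISAT2, Trimmomatic and DESeq2, with no roles, settings or versions. The deposited table of raw read counts per gene was the main input, and the authors' deposited FPKM table was used for levels and for an alternative. Counts were fitted with edgeR 4.0.16 (R 4.3.3; TMM, filterByExpr, robust quasi-likelihood, 1 coefficient per age, Benjamini-Hochberg adjustment over 15525 genes). The labels list separate mice, and p-values cover the spread between them; counting error is small at 30599012 or more reads a library. Replicate numbers do not pair mice (correlations of same-numbered deviations from -0.345 to 0.217).

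The rule for named genes was the 12 largest changes per direction outside immune and neuronal genes with a mean of at least 10 CPM and no overlap, up to 4 members per list, the 6 highest genes by FPKM at 3 months and tissue markers; further genes are marked as singled out after their values were seen. All lists were chosen with earlier results of these data known. Alternatives were DESeq2 1.42.0, limma 3.58.1 on log2(FPKM + 1) and log2(FPKM + 0.1), other size factors, no count filter, the 8 libraries alone, a replicate block, a minimum fold of 1.5, each tissue score, and leaving out each library. On simulated counts for 15400 genes with the comparison of 20 against 3 months, the test recovered 34 of 67 genes changed 1.5-fold, 56 of 67 changed 2-fold and 63 of 66 changed 3-fold, and called 5 unchanged genes. Gene positions and promoters are from RefSeq annotation of GRCm38.p6, the assembly that mm10 names, and all named genes were matched by symbol. Some genes that the naming rule selects are not reported here.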

Additional observations from a re-analysis of the deposited data

Results flagged for a closer look

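Among 302 groups of 4 libraries examined, 18 held a library that stood apart from the other three by more than Dixon's 95% critical value, and chance alone flags about 1 in 20 groups. At 20 months the high ones were Hspa1a with 98.4 CPM in replicate 4, Calb1 with 209.5 CPM in replicate 3, Hlf with 169.6 CPM and Kcnk5 with 48.2 CPM in replicate 1, and Scd1 with 1031 CPM in replicate 2. At the same age the low ones were Hspe1 with 56.7 CPM in replicate 1, Fcrlb with 28.7 CPM, Nr3c1 with 82.0 CPM, Apoe with 2126 CPM and Mbp with 1499 CPM in replicate 2, and Cdkn1b with 211.5 CPM and Clu with 1736 CPM in replicate 3. At 3 months Cntnap5c was high in replicate 1 with 21.96 CPM, as was Clrn1 with 25.1 CPM, Ngp was high in replicate 2 with 19.2 CPM, Bag3 was high in replicate 3 with 107 CPM, and Col13a1 was high in replicate 4 with 6.45 CPM. P4ha3 was low in replicate 3 of that age with 21.2 CPM. Replicate 2 of the old group, which has the lowest brain score of its age, accounts for 5 of the 12 old values, in genes that were high and low there. Leaving out the library in question kept the call of every called gene in this paragraph except Clrn1, which was lost without replicate 1 of the young group.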

How the results depend on the processing

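The counts of higher and lower genes were 158 and 26 with a minimum fold of 1.5, 928 and 477 with the mucosa score and 843 and 923 with that of muscle and bone. Leaving out 1 library gave 1221 to 2010 higher and 990 to 1941 lower genes. The share of higher among called genes was 61.9% with limma on log2(FPKM + 1), 66.1% with the mucosa score and 85.9% with the minimum fold, against 52.99% in the fit reported. With the replicate block 1556 genes were higher and 1383 lower. Replicate numbers share no animal, and not every library correlated best with its own number. Between the fit reported and each alternative, 0 genes were called in opposite directions. The number of genes that follow the marrow and blood score was 2 with no count filter and 1 to 4 without 1 library. For genes that follow the mucosa score it was 55 with DESeq2 size factors, 217 with no count filter and 0 to 308 without 1 library. It was 3 to 217 for genes that follow the brain score and 0 to 46 for genes that follow the muscle and bone score without 1 library. The cause of these moves was not tested.

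Genes with no call changed sign as follows, on the log2 scale. With the brain score Fth1 was at -0.024, Gja1 at -0.31, Mbp at -0.34 and Gfap at -0.18, and with that of muscle and bone Mbp was at -0.15. Ngp was at -0.0091 with the replicate block, -0.42 with the marrow and blood score, -1.71 with the mucosa score and -1.02 to 1.69 without 1 library, being below 0 without replicate 1 of the old group. Ctla2a was at -0.37 with the mucosa score and -0.11 to 0.64 without 1 library, below 0 without that same one, and with the mucosa score Nupr1 was at -0.18 and Notch3 at -0.155. Apod was at -0.0041 with DESeq2 size factors and the DESeq2 Wald test, -0.0062 with no count filter, -0.0011 with the 8 libraries, -0.0063 with the marrow and blood score, -0.14 with the mucosa score and -0.12 to 0.12 without 1 library, below 0 without 4 of the 8. The scores and age overlap in part, 4 mice per age limit what can be kept, and changes under 2-fold are recovered in part only.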
